A study of Mus musculus with 103 samples.

Results

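The 37 genes described here encode lysosomal membrane proteins, lysosomal hydrolases and their cofactors, subunits of the vacuolar proton pump, and transcription factors that act on such genes. They were taken as a fixed list of gene symbols from a table of 48526 genes, and cathepsins were not on the list. All 37 were found in the table, on 15 chromosomes of build GRCm38. They comprised 10 membrane proteins, 8 glycosidases, 4 sulfatases, 4 lipid or peptide hydrolases, 3 luminal cofactors or carriers, 6 proton pump genes and 2 transcription factors. The list was not chosen from the expression values, although earlier results of these data were known when it was made.

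RNA-seq was performed on whole hippocampus of male C57BL/6J mice at 2, 4, 8 and 18 months of age, with 1 library per mouse, and 89 of 103 libraries are reported here. Homozygous TASTPM mice (HO, 15 mice) and hemizygous TASTPM mice (HET, 16 mice) carried human APP with the Swedish mutation under the Thy1 promoter together with a second transgene that is not named here. TAS10 mice (13 mice) were hemizygous for the same human APP transgene alone. TAU mice (14 mice) were hemizygous for human MAPT with the P301L mutation under the Camk2a promoter. Wild-type mice (WT, 31 mice) were littermate controls of the parental lines. Groups of line and age held between 2 and 8 mice, with 3 HO, 4 HET, 4 TAS10, 2 TAU and 7 WT mice at 18 months. Thy1 and Camk2a are promoters that drive transgenes in neurons, and no lysosomal gene was targeted in any line.

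Lysosomes are the acidic organelles in which cells break down proteins, lipids, glycans and engulfed material. Their interior is acidified by the vacuolar ATPase, whose membrane V0 sector and cytosolic V1 sector together pump protons, and their limiting membrane is protected by heavily glycosylated proteins such as LAMP1 and LAMP2. Many lysosomal genes carry the CLEAR element, an E-box sequence that is bound by TFEB and its relative TFE3. In the brain all cell types have lysosomes, whereas CD68 and LAPTM5 are mainly found in microglia and other phagocytes, and loss of many of the hydrolases causes storage diseases of the nervous system.

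The CLEAR core was searched for because it is the one sequence feature that many of these genes are known to share. RefSeq promoters on build GRCm38.p6, each of 250 bases before and 50 bases after a transcription start site, were available for 31 of the 37 genes. The 7-base E-box TCACGTG was present on either strand in the promoters of 9 of the 31 genes (29%), against 4.29% of all 27025 genes with a promoter. The 6-base core CACGTG, which lies within it, was present in the same 9 genes and in 8.09% of all genes. The palindrome TCACGTGA was present in 4 of the 31 genes (12.9%), namely Mcoln1, Gla, Atp6v0d1 and Atp6v1a, against 1.12% of all genes. GAGGAAGT, a sequence bound by the myeloid factor Spi1, was present in Gusb and Gla (6.45%), against 3.69% of all genes. Tfeb was not among the genes in which any of these sequences was found. Genes without an available promoter could not be searched.

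Some of the promoter stretches that hold the E-box are shown, with every match to TCACGTG on either strand in capitals, so that the palindrome appears as 8 capitals. Naglu, Lamp1 and Glb1 are the E-box genes that were higher in HO mice at 18 months, and Mcoln1 and Atp6v0d1 are E-box genes that were not, chosen after their values were seen. All are written 5′ to 3′ on the strand of the gene.
Naglu: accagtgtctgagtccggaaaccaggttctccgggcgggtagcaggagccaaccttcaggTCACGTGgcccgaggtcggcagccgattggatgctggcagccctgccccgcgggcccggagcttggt
Lamp1: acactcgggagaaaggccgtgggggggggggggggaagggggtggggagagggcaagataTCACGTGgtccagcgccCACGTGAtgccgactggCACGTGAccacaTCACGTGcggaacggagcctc
Glb1: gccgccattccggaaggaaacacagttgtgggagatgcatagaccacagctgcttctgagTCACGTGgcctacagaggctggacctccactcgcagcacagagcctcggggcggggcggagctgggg
Mcoln1: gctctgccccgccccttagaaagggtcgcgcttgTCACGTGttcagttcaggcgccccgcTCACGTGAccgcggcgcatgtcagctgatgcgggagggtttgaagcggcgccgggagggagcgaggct
Atp6v0d1: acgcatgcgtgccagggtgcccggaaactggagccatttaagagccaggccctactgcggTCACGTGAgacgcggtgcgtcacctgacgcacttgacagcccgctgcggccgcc
The Naglu stretch lies at chr11:101069960-101070086 on the plus strand, with the E-box starting 74 bases before the start site. The Lamp1 stretch lies at chr8:13159039-13159165 on the plus strand and holds 4 copies of the E-box. The Glb1 stretch is chr9:114400969-114401095 on the plus strand, the Mcoln1 stretch is chr8:3500413-3500540 on the plus strand, and the Atp6v0d1 stretch is chr8:105566015-105566128 on the minus strand. Of the 9 genes with the E-box, Naglu, Lamp1 and Glb1 passed the test in HO mice at 18 months, while Mcoln1, Gaa, Gla, Sgsh, Atp6v0d1 and Atp6v1a did not. In the same comparison 19 of all 37 genes, and 6.63% of all genes tested, were higher. A match to these letters is a description of the sequence and not a measure of binding.

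The authors' values were TPM, each gene's share of the transcripts of a library after scaling for transcript length, so that levels can be compared between genes. A gene was tested where its mean was at least 0.5 TPM in at least 1 group of line and age, which left 26272 genes. Differences are differences of mean log2(TPM + 0.5), and they understate the change of genes below about 1 TPM. A gene was said to have risen or fallen where the adjusted p was below 0.05 in limma, with adjustment over all genes tested in that comparison. All 37 genes passed the filter, but Atp6v0d2 did so only through the HO and TAU groups of 18 months, its highest WT group mean being 0.0472 TPM. Its calls in comparisons that include these groups are therefore counted but support nothing.

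Of the 89 libraries, 13 stood apart by their region markers or their transgene level. In 12 of them markers of neighbouring regions were raised relative to markers of hippocampal excitatory neurons by more than 1.5 on the log2 scale, both taken from the WT median. No gap separated these 12 from the rest, the lowest being at 1.51 and the next library, HO replicate 3 of 18 months, at 1.46. The other HO mice of 18 months were at 1.08 and 0.65, against -0.65 to 0.33 in WT mice of that age. In 3 of the 13 the level of App or Mapt lay within the WT range of 386 to 580 TPM or 123 to 191 TPM, although the label gave a transgene. The 13 libraries were 1 HO mouse of 2 months, 3 HO mice of 4 months, 1 HO mouse of 8 months (replicate 2), 2 TAS10, 4 TAU and 2 WT mice, and none was 18 months old. HO replicate 2 of 8 months was apart by both criteria, with a summed level of 1130 TPM for the markers of neighbouring regions, against 87.4 to 106 TPM in the other 3 HO mice of that age. Counts that change by more than 1.5 times without these libraries are given both ways.

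The mean over the 37 genes of log2(TPM + 0.5) was highest in TAU and HO mice of 18 months. At 2 months the group means were 5.33 in HO, 5.33 in HET, 5.31 in TAS10, 5.32 in TAU and 5.26 in WT mice. In HO mice the mean was 5.33 ± 0.07 at 2 months, 5.42 ± 0.06 at 4 months, 5.66 ± 0.16 at 8 months and 5.83 ± 0.07 at 18 months (SD, n = 4, 4, 4 and 3). In HET mice it was 5.33 ± 0.07, 5.34 ± 0.06, 5.42 ± 0.11 and 5.60 ± 0.05 at the same ages (SD, n = 4 each). In WT mice it was 5.26 ± 0.04, 5.19 ± 0.07, 5.19 ± 0.05 and 5.25 ± 0.08 (SD, n = 8, 8, 8 and 7). TAU mice lay between 5.25 and 5.34 at 8 months, against 5.14 to 5.24 in WT mice, and the 2 TAU mice of 18 months had 6.31 and 5.93. TAS10 mice lay between 5.33 and 5.41 at 18 months, against 5.17 to 5.40 in WT mice. At 18 months every HO, HET and TAU mouse was therefore above every WT mouse, whereas TAS10 and WT mice overlapped.

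**Figure D1:**
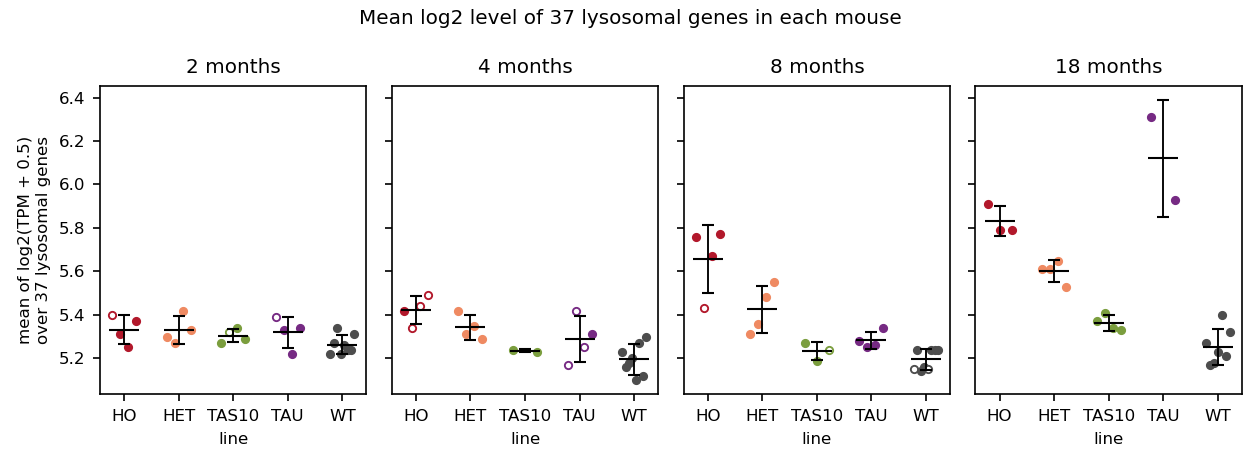
Mean of log2(TPM + 0.5) over the 37 lysosomal genes in each mouse (points), with the mean and SD of each group, by line within each age. Open points are libraries set apart by region or transgene level. HO mice averaged 5.83 at 18 months, against 5.25 in WT mice, and the open HO point at 8 months is replicate 2 at 5.43.

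In HO mice of 18 months 19 of the 37 genes rose and none fell, against 6.63% of all genes tested that rose and 1.20% that fell. The median difference of the 37 was 0.31 on the log2 scale, against 0.01 for all genes tested. By role, 6 of 10 membrane proteins rose, as did 5 of 8 glycosidases, 2 of 4 lipid or peptide hydrolases, 3 of 3 cofactors or carriers and 2 of 2 transcription factors. None of the 4 sulfatases passed, and of the 6 proton pump genes only Atp6v0d2 did. In 23 of the 37 genes all HO mice were above all WT mice, and in 1 all were below. The share of all genes that separated in this way was not computed, so these 2 counts have no background.

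Cd68 (chr11:69664213-69666153, minus strand) encodes macrosialin, a lysosomal membrane glycoprotein of phagocytes. It had 91.8, 85.5 and 76.1 TPM in the HO mice of 18 months, against 8.81 to 14.4 TPM (median 10.5) in the 7 WT mice. The groups did not overlap, and the log2 difference was 2.90 ± 0.2 (SE), or 7.49-fold (adjusted p = 3.61e-21). Laptm5, a lysosomal transmembrane protein of blood and myeloid cells, had 114, 86.1 and 84.3 TPM in HO mice, against 19.4 to 32 TPM (median 20.5) in WT mice. It rose by 2.04 ± 0.163 in log2 units (adjusted p = 8.51e-18). The family members Laptm4a and Laptm4b are found in many cell types. Laptm4a had 211, 228 and 226 TPM in HO mice, against 156 to 218 TPM (median 179) in WT mice, and did not pass (log2 difference 0.30, adjusted p = 0.0871). Laptm4b had 70.9, 71.7 and 69.3 TPM in HO mice, against 64.5 to 94.3 TPM (median 68.5) in WT mice, with a 95% interval of the log2 difference from -0.27 to 0.22. Only Laptm5 of the 3 paralogues thus passed in HO mice at 18 months.

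Hexa (chr9:59539540-59565109, plus strand) encodes the alpha subunit of the enzyme that degrades GM2 ganglioside and gave the smallest p of the 37 genes. It had 110, 87.6 and 91 TPM in HO mice, against 31.5 to 36.8 TPM (median 34.2) in WT mice, a log2 difference of 1.48 ± 0.0944 (adjusted p = 5.18e-23). Gusb, the beta-glucuronidase of glycosaminoglycan breakdown, had 32.9, 29.8 and 26.2 TPM in HO mice, against 9.22 to 14.2 TPM (median 12.5) in WT mice (log2 difference 1.28, adjusted p = 2.15e-11). Man2b1, the lysosomal alpha-mannosidase, had 42.5, 32.4 and 34.3 TPM in HO mice, against 14.2 to 23.2 TPM (median 21.2) in WT mice (log2 difference 0.86, adjusted p = 1.50e-07). For each of these glycosidases all HO mice were above all WT mice. Naglu and Glb1, which cleave N-acetylglucosamine from heparan sulfate and galactose from glycolipids, also rose, by 1.18 and 0.68 on the log2 scale. The other glycosidases were Gaa, the acid glucosidase of glycogen, Gla, the alpha-galactosidase, and Neu1, a sialidase. They had log2 differences between -0.07 and 0.17 and did not pass.

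The 4 sulfatases remove sulfate from glycosaminoglycans and did not pass in HO mice. Galns had a mean of 7.16 TPM in HO mice and 5.32 TPM in WT mice, and Sgsh 2.62 TPM in HO mice and 1.91 TPM in WT mice, and in both all HO mice were above all WT mice (log2 differences 0.40 and 0.38). Arsb and Ids had log2 differences of 0.10 and -0.13 and overlapped WT mice. Among the lipid and peptide hydrolases Lipa, the acid lipase, rose by 0.50 and Ppt1 by 0.24 on the log2 scale. Asah1, the acid ceramidase, and Tpp1, a tripeptidyl peptidase, had log2 differences of 0.30 and 0.26 and did not pass.

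Grn encodes progranulin, a secreted and lysosomal glycoprotein. It had 106, 93.1 and 91.6 TPM in HO mice, against 33.5 to 40.1 TPM (median 37.9) in WT mice, a log2 difference of 1.35 ± 0.102 (adjusted p = 4.73e-19). Npc2, the luminal cholesterol carrier, had 76.8, 67.7 and 68.1 TPM in HO mice, against 24.1 to 47.3 TPM (median 26.9) in WT mice (log2 difference 1.30 ± 0.164, adjusted p = 1.13e-09). All HO mice exceeded all WT mice for both genes. Npc1, the membrane protein that takes cholesterol over from Npc2, had a mean of 20.7 TPM in HO mice and 17.4 TPM in WT mice and did not pass (log2 difference 0.25). Psap, the precursor of the saposins that activate sphingolipid hydrolases, had the highest level of the luminal proteins, with a mean of 839 TPM in HO mice and 719 TPM in WT mice, and it rose by 0.23 in log2 units (adjusted p = 0.0255).

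Lamp1, a major glycoprotein of the lysosomal membrane, had 262, 247 and 241 TPM in HO mice, against 144 to 185 TPM in WT mice (log2 difference 0.58, adjusted p = 4.49e-05). Lamp2 rose by 0.61, Scarb2, the receptor that carries glucocerebrosidase to lysosomes, by 0.31, and Cd63, a tetraspanin of late endosomes, by 1.27 on the log2 scale. Mcoln1, the lysosomal cation channel, had 70.9, 62.5 and 64 TPM in HO mice, against 49.8 to 61.8 TPM (median 54.5) in WT mice. The groups did not overlap, yet the gene did not pass (log2 difference 0.23, adjusted p = 0.157).

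Tfeb had 10.3, 10.5 and 11.7 TPM in HO mice, against 4.52 to 9.68 TPM (median 5.01) in WT mice, and rose by 0.93 ± 0.261 in log2 units (adjusted p = 0.0116). Tfe3 had 16.6, 18.6 and 17.6 TPM in HO mice, against 11 to 13.1 TPM (median 12.3) in WT mice (log2 difference 0.50, adjusted p = 1.67e-04). In both the HO mice were above all WT mice. Without HO replicate 3 the Tfeb difference was 0.88 with an adjusted p of 0.082.

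**Figure D2:**
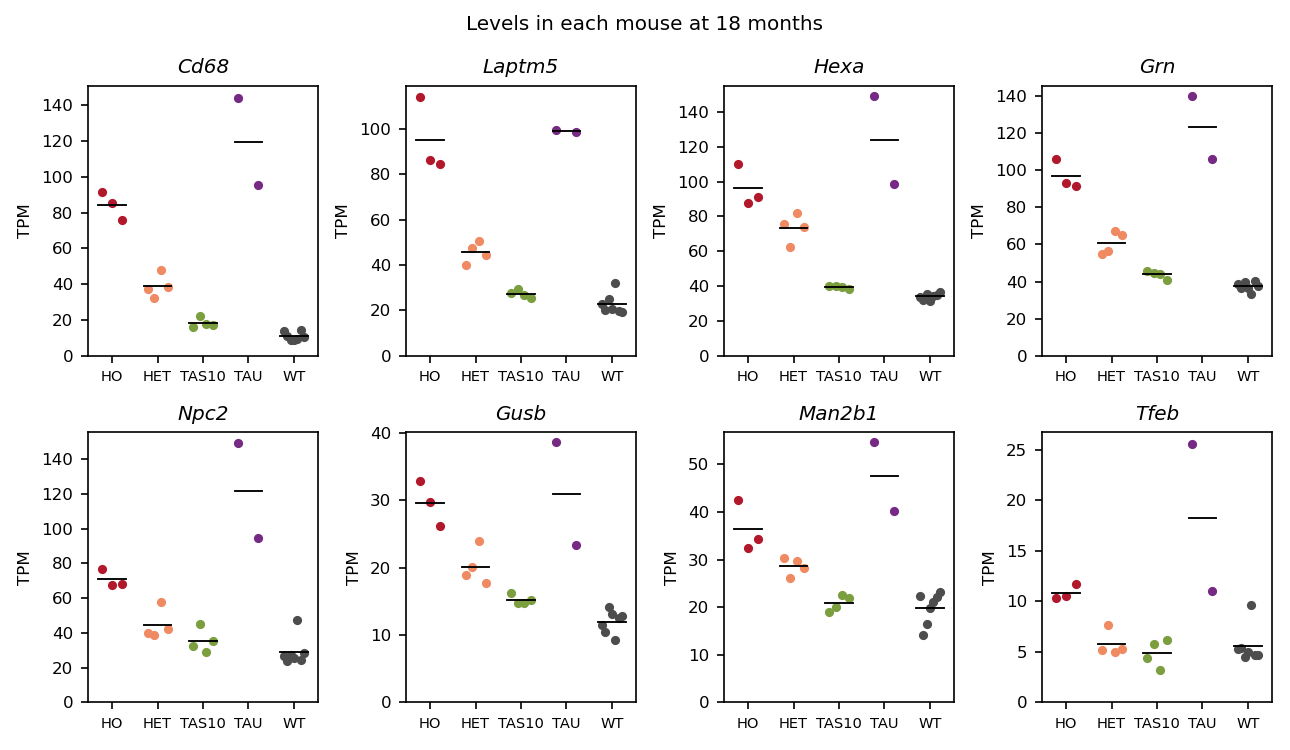
TPM of 8 genes in each mouse of 18 months (points) with the mean of each line (bar), on linear axes from 0. For Cd68 the HO mice lie between 76.1 and 91.8 TPM and the WT mice between 8.81 and 14.4 TPM, and for Tfeb a TAU mouse at 25.6 TPM and a WT mouse at 9.68 TPM lie above the rest of their lines.

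Markers of other cell types moved with these differences. All 12 microglial markers rose in HO mice of 18 months, with a summed level of 1650 to 2170 TPM, against 435 to 489 TPM in WT mice, and no marker was at 0 in any group. Of 9 astrocyte markers 7 rose, while none of 10 neuronal, 10 oligodendrocyte or 4 border macrophage markers passed. Of 15 hippocampal excitatory neuron markers 1 fell, and their summed level was 400 to 590 TPM in HO mice, below every WT mouse. Of 12 markers of neighbouring regions 1 rose, with sums of 107 to 154 TPM in HO and 81.4 to 94.9 TPM in WT mice. Choroid plexus markers summed to 19.8, 3440 and 3630 TPM in the HO mice, against 55.8 to 14500 TPM in WT mice. In bulk tissue more cells of a type cannot be told apart from more RNA per cell. The part of these cell types and regions in the lysosomal differences between HO and WT mice was not tested. All HO libraries of 18 months were sequenced under lane number 3, as were 3 of the 7 WT libraries, and among these 6 libraries 15 of the 37 genes rose and none fell.

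In HO mice of 8 months 15 of the 37 genes rose and 4 fell, against 4.82% of all genes tested that rose and 4.26% that fell. Cd68 had 58, 101, 72.2 and 92.8 TPM in HO mice, against 7.88 to 9.93 TPM (median 9.11) in WT mice (log2 difference 3.08, adjusted p = 7.67e-26). Laptm5 had 66.2, 89.6, 92.5 and 96.7 TPM in HO mice, against 12.8 to 23.9 TPM (median 18.4) in WT mice, and Hexa had 74.8, 93.2, 79.8 and 88.8 TPM, against 32.1 to 41 TPM (median 34.2). Neither gene overlapped between the lines. Grn, Npc2, Gusb, Man2b1, Cd63 and Naglu rose by between 1.05 and 1.42 on the log2 scale. Lamp1, Lamp2, Glb1, Lipa and Tpp1 rose by between 0.34 and 0.61, and Atp6v0d2 was called at 0.46. Summed microglial markers were 1390 to 2200 TPM in HO mice, against 350 to 411 TPM in WT mice, and 12 of 12 rose. Of 9 astrocyte markers 5 rose. Choroid plexus markers summed to 12700 TPM in HO replicate 1, against 25 to 34.2 TPM in the other HO mice and 17.8 to 4450 TPM in WT mice. Replicate 1 had the highest Lamp2, Cd63, Glb1, Lipa, Npc2 and Tpp1 of the HO mice, but the lowest Cd68, Laptm5, Hexa, Grn, Gusb and Lamp1. The part of these markers in the result was not tested.

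The 4 genes that fell in HO mice at 8 months were all proton pump genes, and their fall rested on 1 library. Atp6v0c, which forms the rotating proton-binding ring, had 994, 615, 1000 and 846 TPM in HO mice, against 932 to 1310 TPM (median 1050) in WT mice (log2 difference -0.33, adjusted p = 0.00878). Atp6v1b2, the brain form of a catalytic-head subunit, had 245, 141, 266 and 230 TPM in HO mice, against 237 to 366 TPM (median 303) in WT mice (log2 difference -0.50, adjusted p = 2.67e-04). Atp6v0d1, the widespread form of the subunit that couples the 2 sectors, had 140, 99.3, 146 and 128 TPM in HO mice, against 130 to 171 TPM (median 148) in WT mice (log2 difference -0.23, adjusted p = 0.00955). Atp6ap1, an accessory subunit, had 252, 179, 213 and 221 TPM in HO mice, against 223 to 292 TPM (median 260) in WT mice (log2 difference -0.26, adjusted p = 7.70e-04). In each the second HO mouse was lowest, which is the replicate that stood apart by region and by transgene level. Without it 15 genes rose and none fell, and the differences were -0.17 for Atp6v0c, -0.29 for Atp6v1b2, -0.11 for Atp6v0d1 and -0.17 for Atp6ap1, with adjusted p between 0.069 and 0.37. Without all libraries set apart 16 genes rose and none fell. Neuronal markers were also lower in the HO group, 4 of 10 of them passing, with a summed level of 2160 TPM in replicate 2, against 3370 to 3830 TPM in the other HO mice and 3900 to 6010 TPM in WT mice, and their part in the result was not tested.

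**Figure D3:**
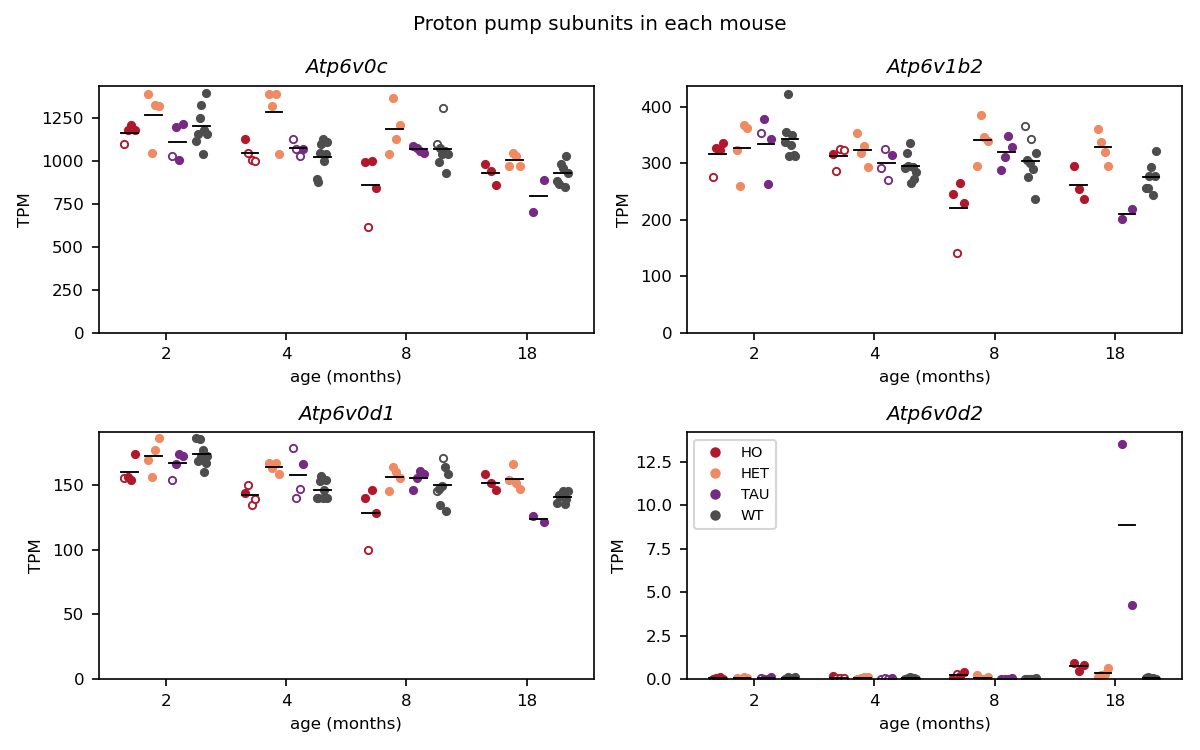
TPM of 4 proton pump genes in each HO, HET, TAU and WT mouse (points, in that order within each age) with group means (bars), on linear axes from 0. Open points are libraries set apart. The open HO point at 8 months is replicate 2, with 615 TPM of Atp6v0c and 141 TPM of Atp6v1b2, and Atp6v0d2 is above 1 TPM only in the 2 TAU mice of 18 months.

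HO mice of 2 and 4 months had fewer calls than those of 8 and 18 months. At 2 months only Ppt1, the palmitoyl-protein thioesterase, rose, by 0.23 on the log2 scale, against 0.982% of all genes that rose and 0.879% that fell. At 4 months 12 rose and none fell, against 9.28% that rose and 3.40% that fell, led by Cd68 with a log2 difference of 0.96. Leaving out replicate 3 or 4 of the HO mice reduced the 12 to 7 or 5. In the HO mice of 4 months 13 of 15 hippocampal excitatory neuron markers fell and 9 of 12 markers of neighbouring regions rose, as did 5 of 12 microglial and 5 of 9 astrocyte markers, and their part in the result was not tested. Without the libraries set apart, which left 1 HO mouse of 4 months, 2 of the 37 genes passed at that age, with the spread taken from the other groups, and none at 2 months. Whether the difference from WT mice changed between 2 and 8 months was tested directly, and 10 genes had a higher and 1 a lower difference at 8 months, against 3.04% and 2.48% of all genes. Between 8 and 18 months a change of the difference passed for 1 gene, Atp6v0d2, against 1.02% of all genes with an increase that passed. This gene entered the test only through the groups of 18 months.

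In HET mice fewer of the 37 genes passed than in HO mice at each age. None passed in limma at 2 months, against 0.148% of all genes that passed in either direction. An unadjusted limma p under 0.05 was reached by 1 of the 37 genes at 2 months, and the share of all genes at that threshold was not computed. At 4 months 1 gene, Glb1, rose, against 0.655% of all genes that rose and 0.0381% that fell. At 8 months 8 genes rose and none fell, against 4.12% that rose and 1.32% that fell, and without HET replicate 4 of 8 months 5 did. With quantile normalization 6 rose and 1 fell. Cd68 had 25.8, 17, 18.9 and 43.3 TPM in the HET mice of 8 months, against 7.88 to 9.93 TPM in WT mice (log2 difference 1.40, adjusted p = 1.55e-08), and microglial markers summed to 571 to 1050 TPM in HET mice, against 350 to 411 TPM in WT mice, 10 of 12 of them rising. At 18 months 15 rose and none fell, against 4.67% that rose and 1.15% that fell. With the lane number in the fit 6 genes rose at 18 months, and the HET libraries of that age were under lane numbers 7 and 8, which held no WT library of that age.

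Cd68 had 37.5, 32.2, 48.1 and 38.6 TPM in HET mice of 18 months, against the 8.81 to 14.4 TPM of WT mice (log2 difference 1.79, adjusted p = 1.44e-12). Laptm5 had 40.1, 47.3, 50.7 and 44.5 TPM in HET mice, 2-fold that of WT mice on the TPM + 0.5 scale (adjusted p = 6.20e-07). Hexa had 75.9, 62.7, 81.8 and 73.9 TPM in HET mice, with a log2 difference of 1.09. It was the only one of the 37 genes to pass the test for a change of the difference between 8 and 18 months. Its difference grew by 0.56 (limma, adjusted p = 0.0354, against 0.0228% of all genes with an increase that passed). The estimated change was positive for 26 of the 37 genes, with a median of 0.10, against -0.01 for all genes tested. None of the 37 passed with quantile normalization, in a fit of the compared groups only, or without HET replicate 1 of 18 months. Grn rose by 0.69, Gusb by 0.73 and Npc2 by 0.62 on the log2 scale. Laptm4a had 264, 238, 248 and 227 TPM in HET mice, against 156 to 218 TPM in WT mice, and rose by 0.44 (adjusted p = 0.00234). Tfeb had 5.21, 7.66, 5.02 and 5.25 TPM in HET mice, which overlapped the WT range of 4.52 to 9.68 TPM. Microglial markers summed to 1010 to 1490 TPM in HET mice, against 435 to 489 TPM in WT mice, and 12 of 12 rose.

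The 2 TASTPM groups were compared directly. At 18 months 8 genes were higher in HO than in HET mice and 1 was lower, against 3.96% of all genes higher and 2.46% lower. Cd68 differed by 1.11 (adjusted p = 8.29e-04), Laptm5 by 1.04 (adjusted p = 1.21e-04), Npc2 by 0.68, Grn by 0.67, Gusb by 0.55 and Hexa by 0.38 on the log2 scale. The gene that was lower was Atp6v1a, the catalytic subunit of the V1 sector, with a difference of -0.62. With the lane number in the fit 5 genes were higher and none lower. At 8 months 11 genes were higher and 7 lower in HO mice, against 4.67% higher and 9.12% lower. Without the libraries set apart 14 were higher and 3 lower, and without HO replicate 2 alone 10 were higher and 3 lower. With quantile normalization the counts at 8 months were 16 and 3, and with the lane number in the fit they were 9 and 3. Leaving out HO replicate 1 of 18 months reduced the number of genes that passed at 18 months to 5. The HO libraries of that age were under lane number 3 and the HET libraries under 7 and 8, so that lane and line cannot be told apart in this comparison. Up to 20 libraries shared a lane number, so a number may stand for more than 1 run. At 18 months 5 of 12 microglial and 3 of 9 astrocyte markers were higher and 2 of 15 hippocampal excitatory neuron markers lower in HO than in HET mice. At 8 months 12 of 12 microglial, 4 of 9 astrocyte and 4 of 5 endothelial markers were higher and 3 of 10 neuronal markers lower. The part of these markers in the result was not tested.

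In TAS10 mice none of the 37 genes passed in limma at any age. The groups held 4, 2, 3 and 4 mice at 2, 4, 8 and 18 months. In replicate 3 of 8 months App was at 479 TPM, within the WT range, and replicate 2 of 2 months was set apart by region. None of the 37 passed without the libraries set apart either. An unadjusted p under 0.05 was reached by 5 genes at 2 months, 1 at 4 months, 2 at 8 months and 6 at 18 months. The share of all genes at that unadjusted threshold was not computed. Of all genes tested, 0.213% passed after adjustment in either direction at 2 months, 0.164% at 4 months, 0.129% at 8 months and 0.0571% at 18 months. Cd68 was nearest, with 15.9, 22.5, 17.9 and 17.1 TPM in TAS10 mice of 18 months, all above the 8.81 to 14.4 TPM of WT mice (log2 difference 0.72 ± 0.182, adjusted p = 0.0819). Hexa had 40.3, 40.3, 39.6 and 38.2 TPM in TAS10 mice, above the 31.5 to 36.8 TPM of WT mice, with a log2 difference of 0.21 that did not pass. Gusb and Grn were likewise higher in every TAS10 mouse than in every WT mouse without passing. Microglial markers summed to 560 to 616 TPM in TAS10 mice, against 435 to 489 TPM in WT mice.

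In TAU mice most of the calls fell at 18 months. None of the 37 genes passed in limma at 2 months or at 8 months, against 0.586% and 0.735% of all genes that passed in either direction. An unadjusted limma p under 0.05 was reached by 10 and 7 of the 37 genes, and the share of all genes at that threshold was not computed. At 4 months Lamp1, Npc1 and Tfe3 rose, against 4.00% of all genes that rose and 3.46% that fell, and none passed without the libraries set apart, which left 1 TAU mouse of that age, assumed to vary like the other groups. In the TAU mice of 4 months 10 of 15 hippocampal excitatory neuron markers fell and 3 of 12 markers of neighbouring regions rose, and their part in the result was not tested. At 18 months 24 genes rose and 2 fell, against 11.9% that rose and 10.5% that fell. The median difference of the 37 was 0.65 on the log2 scale, against -0.03 for all genes tested. The difference from WT mice was higher at 18 than at 8 months for 21 genes and lower for 3, against 9.37% and 11.5% of all genes. The group held 2 mice. Without replicate 1, the mouse with the higher levels, 17 genes rose and none fell, in a fit that takes the spread of the lone TAU mouse from the other groups, and the mean over the 37 genes exceeded that of WT mice by 0.67 in place of 0.86.

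Cd68 had 144 and 95.2 TPM in the TAU mice of 18 months, against 8.81 to 14.4 TPM in WT mice (log2 difference 3.38, adjusted p = 1.06e-21). Hexa had 149 and 98.5 TPM in TAU mice, against 31.5 to 36.8 TPM in WT mice (log2 difference 1.81, adjusted p = 7.30e-25). Grn had 140 and 106 TPM in TAU mice, against 33.5 to 40.1 TPM (log2 difference 1.69, adjusted p = 4.32e-21). At 8 months the TAU mice had 7.76 to 13.5 TPM of Cd68, 35 to 41.5 TPM of Hexa and 34.7 to 39.7 TPM of Grn. Laptm5 had 99.4 and 98.4 TPM in the TAU mice of 18 months, and Gusb 38.6 and 23.3 TPM. Npc2 had 149 and 94.6 TPM, Cd63 970 and 611 TPM, and Man2b1 54.7 and 40.3 TPM. All of these lay above every WT mouse of that age. Asah1 (0.78), Tpp1 (0.65), Sgsh (0.53), Npc1 (0.45) and Laptm4a passed in TAU but not in HO mice, where the difference between the lines was itself past the test only for Laptm4a.

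Atp6v0d2 encodes a form of the V0 d subunit known from osteoclasts and macrophages, whereas Atp6v0d1 is the widespread form. Atp6v0d2 had 13.5 and 4.24 TPM in the TAU mice of 18 months and 0.897, 0.479 and 0.824 TPM in the HO mice, against 0.00835 to 0.137 TPM (median 0.0429) in WT mice. HET mice of that age had 0.125, 0.237, 0.289 and 0.644 TPM, and TAU mice of 8 months at most 0.0625 TPM. The log2 difference from WT mice, on the TPM + 0.5 scale, was 3.91 in TAU and 1.17 in HO mice. Atp6v0d1 had 126 and 121 TPM in TAU mice and 158, 151 and 146 TPM in HO mice of 18 months, against 135 to 145 TPM (median 141) in WT mice. It did not pass in either line, although both TAU mice lay below and all HO mice above the WT range, and even in TAU mice the level of Atp6v0d2 was below that of Atp6v0d1.

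The 2 genes that fell in TAU mice of 18 months were Ids and Atp6v1b2. Ids, the iduronate sulfatase, had 106 and 142 TPM in TAU mice, against 146 to 198 TPM (median 180) in WT mice (log2 difference -0.49, adjusted p = 0.00527). Atp6v1b2 had 202 and 219 TPM in TAU mice, against 243 to 322 TPM (median 277) in WT mice (log2 difference -0.38, adjusted p = 0.0299). Both TAU mice were below every WT mouse for each gene, but neither gene passed without TAU replicate 1, and Atp6v1b2 did not pass without replicate 2 either. Mcoln1 had 49.8 and 53.4 TPM in TAU mice and overlapped WT mice (log2 difference -0.12, 95% interval -0.34 to 0.11). Laptm4a had 408 and 252 TPM in TAU mice, against 156 to 218 TPM in WT mice, and rose by 0.83 (adjusted p = 2.22e-07), while Laptm4b, with 80.8 and 58.7 TPM, did not pass. Tfeb had 25.6 and 11 TPM in TAU mice, against 4.52 to 9.68 TPM in WT mice (log2 difference 1.55, adjusted p = 3.89e-05), and without replicate 1 it was 0.96 with an adjusted p of 0.144. Tfe3 had 18.6 and 17 TPM in TAU mice, against 11 to 13.1 TPM in WT mice.

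The cell type markers of the TAU mice of 18 months also differed from those of WT mice. Microglial markers summed to 3480 and 2210 TPM in TAU mice, against 435 to 489 TPM in WT mice, and 11 of 12 rose. Of 9 astrocyte markers 8 rose, of 10 oligodendrocyte markers 3 rose and of 10 neuronal markers 8 fell. The neuronal markers summed to 1880 and 2690 TPM in TAU mice, against 3410 to 4480 TPM in WT mice. Of 5 endothelial markers 2 rose, of 4 border macrophage markers 1 rose and of 15 hippocampal excitatory neuron markers 2 fell. None of 12 markers of neighbouring regions passed, with sums of 110 to 112 TPM in TAU mice, against 81.4 to 94.9 TPM in WT mice. Markers of the choroid plexus, the epithelium of the ventricles, summed to 27300 TPM in TAU replicate 1 and 242 TPM in replicate 2, against 55.8 to 14500 TPM in WT mice, of which replicate 5 had the highest. Replicate 1 had the higher value of Cd68, Hexa, Grn, Npc2, Cd63, Tfeb and Atp6v0d2, and all 7 were above every WT mouse in replicate 2 as well. The part of these cell types and regions in the lysosomal differences was not tested.

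**Figure D4:**
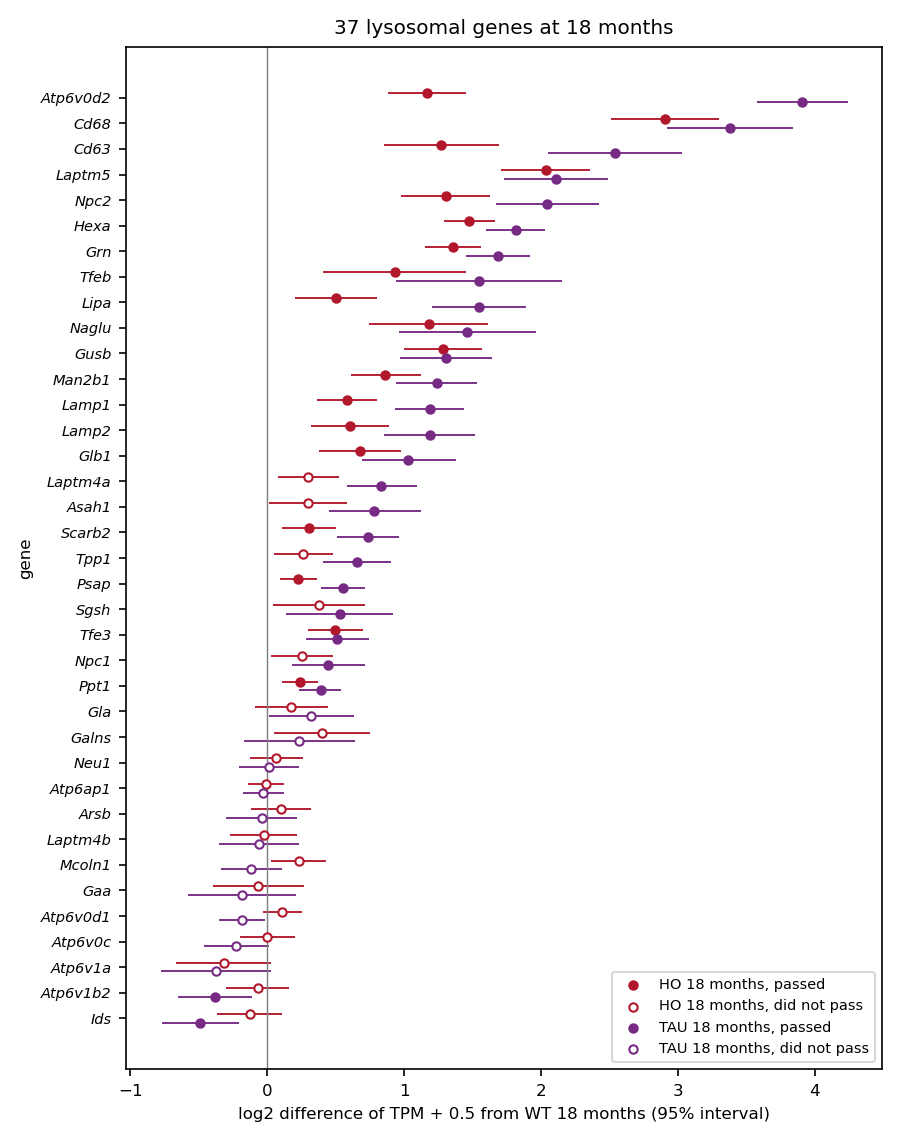
Log2 difference of TPM + 0.5 from WT mice of 18 months for the 37 genes in HO mice (red) and TAU mice (purple), with 95% intervals, ordered by the TAU difference. Filled points passed at an adjusted p of 0.05. The 2 comparisons share the WT mice. Atp6v0d2 is at 3.91 in TAU and 1.17 in HO mice, and Ids is at -0.49 in TAU mice.

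TAU and HO mice of 18 months were also compared directly. In TAU mice 9 of the 37 genes were higher and 1 lower than in HO mice, against 3.05% of all genes higher and 5.02% lower. Atp6v0d2 differed by 2.74, Cd63 by 1.27, Lipa by 1.05, Npc2 by 0.74, Lamp1 by 0.61, Lamp2 by 0.58 and Laptm4a by 0.53 on the log2 scale, and Atp6v0d1 had a difference of -0.30. Laptm5 and Gusb had differences of 0.08 and 0.02 that did not pass. Without TAU replicate 1 only 1 of the 37 genes passed, without HO replicate 2 of that age 6 did, and with the lane number in the fit 1 did. Of the markers, 6 of 10 neuronal ones were lower and 4 of 9 astrocyte ones higher in TAU than in HO mice. Of 12 microglial markers 3 were higher and 1 lower, and of 5 endothelial markers 2 were higher. Of 15 hippocampal excitatory neuron markers 1 was higher and 2 lower, and of 12 markers of neighbouring regions 1 was lower. Choroid plexus markers, of which none passed, summed to 27300 and 242 TPM in TAU mice, against 19.8 to 3630 TPM in HO mice. The part of all these markers in the result was not tested.

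**Figure D5:**
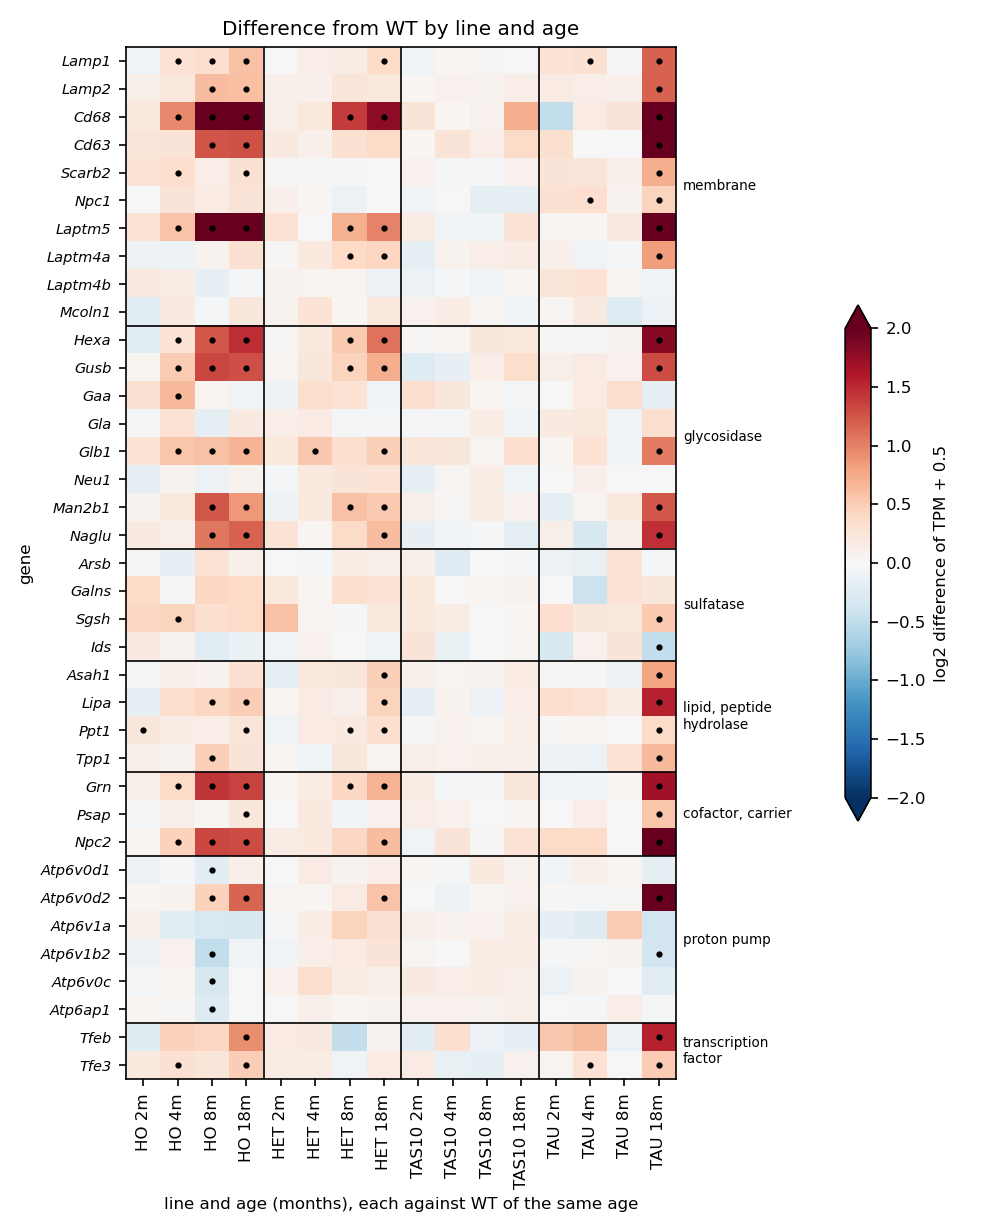
Log2 difference of TPM + 0.5 from WT mice of the same age for each of the 37 genes (rows, grouped by role) in each line and age (columns), with colours saturating at -2 and 2. Dots mark genes that passed at an adjusted p of 0.05, 19 in HO and 24 higher and 2 lower in TAU mice of 18 months, 15 in HET mice and none in TAS10 mice of that age.

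In WT mice of 18 months 1 of the 37 genes was higher and 7 were lower than in WT mice of 2 months, against 3.40% of all genes higher and 6.16% lower. Laptm5 had 19.4 to 32 TPM (median 20.5) at 18 months, against 11.4 to 16.4 TPM (median 13.6) at 2 months, and rose by 0.71 (adjusted p = 4.20e-05). Atp6v0c had 851 to 1030 TPM (median 933) at 18 months, against 1040 to 1400 TPM (median 1170) at 2 months, a log2 difference of -0.37 (adjusted p = 4.77e-04). Atp6v0d1 had 135 to 145 TPM at 18 months, against 160 to 186 TPM at 2 months, a difference of -0.30 (adjusted p = 6.83e-05). Atp6v1b2, Atp6ap1, Hexa, Laptm4a and Neu1 fell by between 0.16 and 0.31 on the log2 scale. With quantile normalization 3 genes were higher and 3 lower, and Atp6v0c, Atp6v1b2 and Atp6ap1 no longer passed. With the lane number in the fit 1 was higher and 2 lower. Of the 12 microglial markers 5 rose with age in WT mice, their sum being 435 to 489 TPM at 18 months, against 351 to 427 TPM at 2 months. Of 10 neuronal markers 2 fell, of 9 astrocyte markers 1 rose and of 4 border macrophage markers 1 fell. Of 5 endothelial markers 2 rose and 2 fell. The part of these markers in the result was not tested. Of 15 further proton pump genes none rose and 8 fell, against the same 3.40% and 6.16% of all genes.

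Levels differed widely among the 37 genes. In WT mice of 18 months the highest were Atp6v0c at 930 ± 64.8 TPM and Psap at 719 ± 68.7 TPM (SD, n = 7), and the lowest above the filter were Sgsh, the heparan sulfamidase, at 1.91 ± 0.236 TPM and Gla at 5.11 ± 0.978 TPM. The proton pump genes other than Atp6v0d2 were among the most abundant, from 141 TPM for Atp6v0d1 upwards, and none of them rose in HO, HET or TAU mice of 8 or 18 months.

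Other genes of the pathway were counted from lists made for this comparison. Of 29 further hydrolase genes 14 rose and none fell in HO mice of 18 months, and 20 rose and none fell in TAU mice of 18 months. Of all genes tested, 6.63% rose and 1.20% fell in HO mice, and 11.9% rose and 10.5% fell in TAU mice. Lgmn, the asparaginyl endopeptidase, rose by 1.06 in HO mice and by 1.42 in TAU mice on the log2 scale. Of 20 further lysosomal membrane genes 7 rose in HO and 6 in TAU mice, and none fell. Slc15a3 and Slc11a1, a peptide and a metal transporter of phagocytes, rose by 2.19 and 2.08 in HO mice and by 2.75 and 3.12 in TAU mice.

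Of 15 further proton pump genes 2 rose and none fell in HO mice, and 4 rose and 4 fell in TAU mice of 18 months, against 6.63% of all genes that rose in HO mice and 11.9% that rose and 10.5% that fell in TAU mice. The risers with the smallest p were the same in both lines, Tcirg1, the V0 a subunit of osteoclasts and immune cells, and Atp6v0e. Tcirg1 had means of 39.8 TPM in HO and 46.3 TPM in TAU mice, against 14.7 TPM in WT mice. Those that fell in TAU mice were Atp6v1g2, Atp6v1d, Atp6v0a1 and Atp6v0e2, of which Atp6v0a1 and Atp6v1g2 are the forms typical of neurons, by 0.67, 0.53, 0.66 and 0.36 on the log2 scale. In HET mice of 18 months 5 of the 15 rose and none fell, against 4.67% and 1.15% of all genes. In HET mice of 8 months none passed, against 4.12% that rose and 1.32% that fell. In HO mice of 8 months 1 rose and 6 fell, against 4.82% and 4.26% of all genes. The counts of this list were not repeated under the alternatives.

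Of 15 tested genes for TFE factors and nutrient sensing at the lysosome, 1 rose and 1 fell in HO mice, and 2 rose and 3 fell in TAU mice. The shares over all genes were 6.63% that rose and 1.20% that fell in HO mice, and 11.9% and 10.5% in TAU mice. Lamtor4 rose by 0.39 in HO mice and Mitf, a relative of Tfeb, by 0.82 in TAU mice. Rragb had means of 45.1 TPM in HO and 42.8 TPM in TAU mice, against 64.4 TPM in WT mice, while Rptor and Mtor fell by 0.31 and 0.53 in TAU mice. Of 9 genes for the delivery of enzymes to lysosomes, Nagpa rose in HO mice, and Nagpa and M6pr, a mannose 6-phosphate receptor, rose in TAU mice. Of 19 autophagy genes 2 rose in HO mice, also a share near that of all genes, namely Gabarap by 0.41 and Map1lc3a by 0.39. In TAU mice 2 rose, among them Gabarap by 0.67, and 4 fell, namely Atg13, Gabarapl1, Atg9a and Wipi2, by 0.55, 0.80, 0.67 and 0.34 on the log2 scale.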

How the data were processed

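RNA was extracted with miRNeasy, and stranded poly(A) libraries (TruSeq) were sequenced as paired reads on a HiSeq2500. The authors used Trim Galore for trimming, Salmon with the Ensembl GRCm38 transcripts for quantification and tximport for values per gene. The deposited values are TPM per gene and mouse. No version of these tools was found in the labels or methods. Each library sums to 1000000 TPM, so the depth of a single library and the counting error of a value are unknown. The study's methods give only a nominal number of reads.

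Differences were fitted to log2(TPM + 0.5) with limma 3.58.1 (R 4.3.3, trend) over all 103 libraries in 24 groups of line and age (79 residual degrees of freedom), with Benjamini-Hochberg adjustment over 26272 genes, separately in each of 24 comparisons. Tests were two-sided. The test was tested on simulated data. One line, with 14 mice, stayed in the fit and, like some genes that the naming rule covers, is not reported here. The 37 genes and all lists were chosen with earlier results of these data known. By rule, values in every mouse were given for the 8 of the 37 genes with the smallest p in HO and the 4 in TAU mice of 18 months, for Tfeb, Tfe3 and Mcoln1, for the Atp6v0d and Laptm paralogues, and for genes lower than in WT mice at 8 or 18 months. Of the other lists the 2 genes with the smallest p in each of these lines and up to 4 that fell were named. Any further gene was named after its values were seen. The labels do not tie any mouse to a litter, so a litter shared between mice could not be modelled. The p-values rest on the spread between mice pooled for each gene over all 24 groups. They do not measure the spread within the 2 TAU mice of 18 months, which was taken mostly from other groups. The SD of the mean over the 37 genes was 0.27 in those mice and 0.08 in WT mice of that age. Atp6v0c has processed pseudogenes whose reads may have been divided with it. Promoters came from RefSeq (GRCm38.p6) and gene positions from GENCODE M21. The alternatives were another amount added to TPM (0.1 or 1), no filter, quantile normalization, the lane number as a covariate, a fit of the compared groups only, leaving out the libraries set apart, lane 3 alone, the median over the genes, and leaving out each mouse in turn.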

Additional observations from a re-analysis of the deposited data

Results flagged for a closer look

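In 124 groups of 4 to 10 mice the highest or lowest value of a gene was compared with its nearest neighbour by Dixon's criterion, which flags about 5% of groups by chance, and 11 single values stood out. Among WT mice of 18 months, replicate 5 had 47.3 TPM of Npc2 (next 28.6), 9.68 TPM of Tfeb (next 5.38) and 94.3 TPM of Laptm4b (next 76.2), and this mouse had 14500 TPM of summed choroid plexus markers, whose part was not tested. Replicate 2 of HET mice of 18 months had 7.66 TPM of Tfeb (next 5.25). Replicate 4 of HET mice of 8 months had 24.1 TPM of Gusb (next 14.8), and replicate 4 of TAU mice of 8 months had 41.5 TPM of Hexa (next 36). Replicate 4 of WT mice of 8 months had the lowest Gusb at 10.2 TPM (next 11.3), and replicate 5, a library set apart by region, had the highest Atp6v0c at 1310 TPM (next 1100). Atp6v0d2 stood out at very low levels, with 0.0625 TPM in a TAU mouse of 8 months, 0.0568 TPM in a WT mouse of 8 months and 0.137 TPM in a WT mouse of 18 months.

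The difference from WT mice changed between ages in interaction tests (limma, adjusted over all genes). Between 2 and 8 months it changed in HO mice for 11 of the 37 genes, led by Hexa (1.44, adjusted p = 9.37e-17), Cd68 (2.87, adjusted p = 1.45e-15), Grn (1.31, adjusted p = 2.48e-13) and Laptm5 (1.91, adjusted p = 8.77e-12). Between 8 and 18 months it changed in TAU mice for 24 genes, among them Hexa (1.75, adjusted p = 3.86e-18), Grn (1.64, adjusted p = 3.88e-15) and Cd68 (3.13, adjusted p = 1.22e-14). Without TAU replicate 1 of 18 months it changed for 11 genes. Over the same ages a change passed for 1 gene in HET mice, Hexa (0.56, adjusted p = 0.0354), and for 1 gene in HO mice, Atp6v0d2. The changes of Atp6v0d2, 3.89 in TAU and 0.70 in HO mice, support nothing, since the gene passed the filter only through the TAU and HO mice of 18 months.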

How the results depend on the processing

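Of 169 counts of genes that passed under alternatives other than leaving out a mouse, 136 were within 1.5 times the reported count, and of 100 differences of the mean over the 37 genes, 87 moved by less than 1 SD. Of 591 values of singly described genes, 518 kept their direction and side of the threshold, 73 lost the call and 0 reversed. No paired analysis was possible because the labels give mouse numbers that are not shared between groups. The causes of the following changes were not tested. With the lane number in the fit, the count was 0 in HO mice of 2 months (reported 1), 0 in HET mice of 4 months (1), 5 in HET mice of 8 months (8), 6 in HET mice of 18 months (15), 1 in TAS10 mice of 18 months (0), 5 in TAU mice of 4 months (3), 3 in WT mice of 18 against 2 months (8), 5 in HO against HET mice of 18 months (9), 1 in TAU against HO mice of 18 months (10) and 0 for the change in HO mice between 8 and 18 months (1). In a fit of the compared groups only, it was 0 in HO mice of 2 months, 6 in HO mice of 4 months (12), 0 in HET mice of 4 months, 3 in HET mice of 8 months, 0 in TAU mice of 4 months, 4 in HO against HET mice of 8 months (18), 0 in TAU against HO mice of 18 months, and 0 for the changes between 8 and 18 months in HO and in HET mice (1 each). Without the libraries set apart it was 0 in HO mice of 2 months, 2 in HO mice of 4 months, 1 in HET mice of 2 months (0), 2 in HET mice of 4 months, 0 in TAU mice of 4 months and 1 in TAU mice of 8 months (0). With quantile normalization it was 0 in HET mice of 4 months, 1 in TAU mice of 8 months, and 0 for the changes between 8 and 18 months in HO and HET mice, and in HET mice of 8 months 6 genes were higher and 1 lower. Without a filter it was 1 in HET mice of 2 months and 1 in TAS10 mice of 18 months. With 0.1 or 1 added to TPM it was 0 for the change in HO mice between 8 and 18 months. The median over the 37 genes in place of the mean gave differences from WT mice of -0.04 in HO mice of 2 months (mean 0.07), 0.78 of 8 months (0.46) and 0.87 of 18 months (0.58), 0.34 and 0.50 in HET mice of 8 and 18 months (0.23 and 0.35), -0.11 and 0.09 in TAS10 mice of 4 and 8 months (0.04 each), and -0.02, 0.13 and 1.27 in TAU mice of 4, 8 and 18 months (0.09, 0.09 and 0.86), and of 0.44 and 0.37 between HO and HET mice of 8 and 18 months (0.23 each). Quantile normalization gave 0.02 for the mean in TAU mice of 8 months. Leaving out each mouse in turn, counts ranged from 0 to 2, 5 to 14, 15 to 21 and 14 to 20 in HO mice of 2, 4, 8 and 18 months, from 0 to 1, 0 to 2, 5 to 9 and 11 to 15 in HET mice, and from 0 to 5, 0 to 2 and 17 to 26 in TAU mice of 4, 8 and 18 months. They ranged from 5 to 8 in WT mice of 18 against 2 months (5 without replicate 2 of 18 months or replicate 3 of 2 months), 13 to 18 and 5 to 10 in HO against HET mice of 8 and 18 months, and 1 to 14 in TAU against HO mice of 18 months. For changes of the difference they ranged from 0 to 2 and 9 to 12 in HO mice (8 to 18 and 2 to 8 months), 0 to 1 in HET mice and 11 to 24 in TAU mice. In HO mice of 4 months the count was 7 without replicate 3 and 5 without replicate 4. The difference of the mean ranged from 0.67 to 1.05 in TAU mice of 18 months, 0.09 to 0.47 between TAU and HO mice, 0.42 to 0.54 in HO mice of 8 months and 0.54 to 0.60 of 18 months. The depth is unknown, and genes near 0 TPM such as Atp6v0d2 are the least certain.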
